A study of Homo sapiens with 29 samples.

Results

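The transcripts described here are those of 10 secreted signalling proteins that tumour cells can make: the chemokines IL8 (the older symbol of CXCL8), CXCL1, CXCL2, CXCL3, CXCL5 and CCL20, and the cytokines IL1B, IL6, LIF and IL11. The genes were listed by name with earlier results of these data known, and 10 of the 10 were found among the 23710 gene symbols of the expression table. RNA sequencing covered 27 libraries in 9 groups of 3, all from 2 established human non-small cell lung cancer lines, both known to carry KEAP1 mutations. H2122 cells carried short hairpin RNAs (sh) against NRF2 or, as the control, GFP, and were taken after 24 h of knockdown. H460 cells carried hairpins against NRF2, NR0B1 or SNW1, with GFP again as the control, and were taken after 72 h. A further set of H460 cells, with no hairpin named in the labels, received 30 µM of BPK29, 30 µM of BPK9, or the solvent DMSO for 12 h. The compounds are known here only by these codes. Each condition was made in a single line (NRF2 knockdown in both), the number of hairpin sequences per target is not given in the sources used here, and line and knockdown time cannot be told apart. The labels do not say whether the 3 libraries of a group came from separate cultures, so every p-value reflects library-to-library variation that could be technical only.

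CXC chemokines with the Glu-Leu-Arg tripeptide just before the CXC motif (IL8, CXCL1, CXCL2, CXCL3 and CXCL5) draw neutrophils through the receptors CXCR1 and CXCR2, while CCL20 draws CCR6-bearing lymphocytes and dendritic cells. IL1B is made as an inactive precursor that caspase-1 cuts. IL6, LIF and IL11 form a family that signals through the shared receptor chain gp130 (IL6ST) to JAK kinases and STAT3. Transcription of most of these genes is known to answer to NF-kB, with AP-1 and C/EBP factors beside it, and their mRNAs are cleared fast by AU-rich element binding proteins such as ZFP36. NRF2 is the regulator of antioxidant genes, held in check by KEAP1, and in mouse macrophages it is known to restrain Il6 and Il1b transcription. NR0B1 (DAX1) mostly represses transcription together with other nuclear receptors, and SNW1 (SKIP) acts in both the spliceosome and transcription complexes.

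The 5 CXC genes lie in 1 cluster on chromosome 4, where the RefSeq order on GRCh38.p14 is CXCL8, CXCL6, PF4V1, CXCL1, PF4, PPBP, CXCL5, CXCL3 and CXCL2. CCL20 and IL1B lie on chromosome 2, IL6 on chromosome 7 and IL11 on chromosome 19. Promoters of 9 of the 10 genes were matched in RefSeq (GRCh38.p14), and LIF is named only. The sequences below are the 150 bases before the annotated start, on the strand of the gene. They are shown because the 5 CXC genes were lower together in H460 shNRF2 and shNR0B1 cells, though not in shSNW1 cells. IL6 and IL1B, from other chromosomes, stand beside them. IL6 was also lower in shNRF2 and shNR0B1 cells, while IL1B was lower in shNRF2 and higher in shNR0B1 cells. Capitals mark matches to a kB motif, written GGNNTTTCC on either strand.
IL8 (chr4:73740419-73740568, plus strand): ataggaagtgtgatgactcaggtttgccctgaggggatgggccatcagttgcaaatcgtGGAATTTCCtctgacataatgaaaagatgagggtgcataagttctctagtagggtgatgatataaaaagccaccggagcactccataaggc
CXCL1 (chr4:73869243-73869392, plus strand): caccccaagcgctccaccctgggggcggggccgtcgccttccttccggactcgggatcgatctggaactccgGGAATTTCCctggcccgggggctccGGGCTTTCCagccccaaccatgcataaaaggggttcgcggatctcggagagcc
CXCL2 (chr4:74099196-74099345, minus strand): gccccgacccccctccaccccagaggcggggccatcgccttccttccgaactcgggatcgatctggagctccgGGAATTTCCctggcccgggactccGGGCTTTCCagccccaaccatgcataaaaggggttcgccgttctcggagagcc
CXCL3 (chr4:74038690-74038839, minus strand): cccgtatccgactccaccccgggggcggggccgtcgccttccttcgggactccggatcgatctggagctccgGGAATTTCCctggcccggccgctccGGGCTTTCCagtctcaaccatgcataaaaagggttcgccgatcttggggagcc
CXCL5 (chr4:73998678-73998827, minus strand): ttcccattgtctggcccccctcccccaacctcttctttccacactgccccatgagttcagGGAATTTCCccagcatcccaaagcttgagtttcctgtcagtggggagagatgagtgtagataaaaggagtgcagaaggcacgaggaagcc
IL6 (chr7:22727050-22727199, plus strand): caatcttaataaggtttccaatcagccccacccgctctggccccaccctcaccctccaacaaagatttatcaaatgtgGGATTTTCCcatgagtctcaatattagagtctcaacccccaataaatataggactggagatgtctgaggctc
IL1B (chr2:112836780-112836929, minus strand): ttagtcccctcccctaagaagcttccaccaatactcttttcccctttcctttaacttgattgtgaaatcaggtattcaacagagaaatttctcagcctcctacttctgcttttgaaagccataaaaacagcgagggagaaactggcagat

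A kB match stood within 250 bases before the start in 7 of the 9 promoters, against 5.48% of the 35116 promoters in the table. CXCL1, CXCL2 and CXCL3 each held a pair of matches, the nearer starting 53 bases before the start, and the farther starting 78, 77 and 78 bases before it. In IL8 the match began 91 bases before the start, in CXCL5 90 bases, in IL6 72 bases and, on the reverse strand, in CCL20 79 bases. No match was found in IL1B or IL11. CCL20, which held a match, was higher in H460 shNRF2 than in shGFP cells, unlike the CXC genes and IL6. The AP-1 motif TGANTCA, which reads the same on both strands, stood in IL8, beginning 137 bases before the start, and in IL11, beginning 96 bases before it, against 6.57% of all promoters. The core of the antioxidant response element, TGACNNNGC on either strand, was in 0 of the 9, against 10.9% of all promoters. These letters were chosen with the known promoters of this gene family in view, and a match describes letters in a window, not binding.

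**Figure D1:**
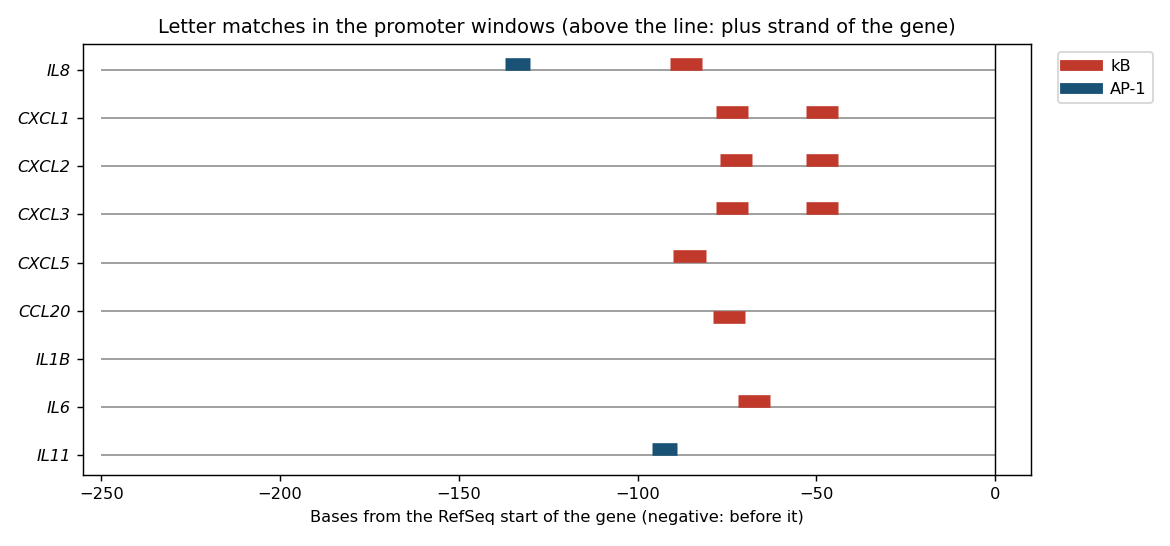
Positions of motif matches in the 250 bases before the start of 9 genes, with the distance from the RefSeq start in bases on the x axis and 1 gene per row. Red boxes mark kB matches and blue boxes AP-1 matches, above the line on the strand of the gene and below it on the other strand; the pairs in CXCL1, CXCL2 and CXCL3 stand within 1 base of each other.

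Each knockdown library held between 16709893 and 24613434 recovered reads, and each compound library between 19077604 and 24824626. Knockdown levels are FPKM, reads per kilobase of transcript scaled for depth, and compound levels are RPM, reads scaled for depth with no length term, so the 2 sets are not compared in level. The targeted transcripts were lower in their own knockdowns. NFE2L2, which encodes NRF2, averaged 26.6 ± 0.852 FPKM in H2122 shNRF2 cells and 58.5 ± 1.009 in H2122 shGFP cells, and 26.9 ± 1.04 in H460 shNRF2 cells and 43.3 ± 1.54 in H460 shGFP cells (SD, n = 3 each). NR0B1 averaged 18.2 ± 0.924 FPKM in shNR0B1 cells, 9.06 ± 0.270 in H460 shNRF2 cells and 47.6 ± 1.69 in shGFP cells, so shNRF2 libraries were lower in NR0B1 than the libraries of its own hairpin. SNW1 averaged 32.2 ± 1.77 FPKM in shSNW1 cells and 51.2 ± 1.65 in shGFP cells. H2122 libraries held all 6 epithelial markers, which summed to 6505 to 6795 FPKM in shNRF2 and 4425 to 4485 in shGFP libraries. By the test described below, 4 were higher with shNRF2, led by KRT19 (1940 against 781.3 FPKM), and 1, EPCAM, was lower (289.8 against 332.7). H460 libraries held KRT8 at 401.4 to 532.4 FPKM but EPCAM at only 0.444 to 1.29 and CDH1 at 0.00391 to 0.0301 in group means. Of 5 tested in H460, 4 were lower and 1 higher in shNRF2 cells (39% and 40.9% of all genes). In shNR0B1 cells 3 were lower and 1 higher (36.8% and 33.1%), and in shSNW1 cells 3 and 2 (36.4% and 30.8%). KRT18 averaged 284.2, 294.9, 367.4 and 607.6 FPKM in shNRF2, shNR0B1, shSNW1 and shGFP cells. KRT19 averaged 1357, 512.7, 1118 and 940.3 FPKM in that order. The part of these markers in the member values was not tested. The T cell gene CD3E was at 0 in every knockdown library, and the leukocyte gene PTPRC reached at most 0.0164 FPKM in a group mean. Of the same 10 immune markers, CD68 averaged 21.6 to 96.5 FPKM over the knockdown groups and CD14 2.61 to 10.7 over those of H460.

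A gene was tested with limma on log2(FPKM + 1), or log2(RPM + 1) for compounds, if at least 3 of the libraries fitted reached 1 unit, and counts as called below an adjusted p of 0.05 (Benjamini-Hochberg, all tested genes). Fold changes are on that log2 scale, which understates low genes, and are given ± SE. In H460 shNRF2 cells against shGFP cells, 7 of the 9 members tested were lower and 2 were higher, where 39% of all 11938 genes tested were lower and 40.9% higher, 79.8% together. In H460 shNR0B1 cells 7 were lower and 1 higher (36.8% and 33.1% of all genes, 69.8% together), and in shSNW1 cells 3 were lower and 5 higher (36.4% and 30.8%, 67.2% together). In H2122 shNRF2 cells against shGFP cells, 2 of the 8 members tested were lower and 6 higher (38.5% and 48.8% of 11710 genes, 87.3% together). The median log2 change of the members tested was -1.13 in H460 shNRF2, -0.45 in shNR0B1, 0.20 in shSNW1 and 0.32 in H2122 shNRF2 cells, beside medians over all genes of 0.01, -0.02, -0.03 and 0.09. Most expressed genes were called in these comparisons, so the size and direction of a change say more than the call. CXCL5 and IL6 in H2122 and IL11 in H460 lay below the minimum and were not tested. In bulk RNA, fewer cells making a transcript and less transcript per cell cannot be told apart.

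**Figure D2:**
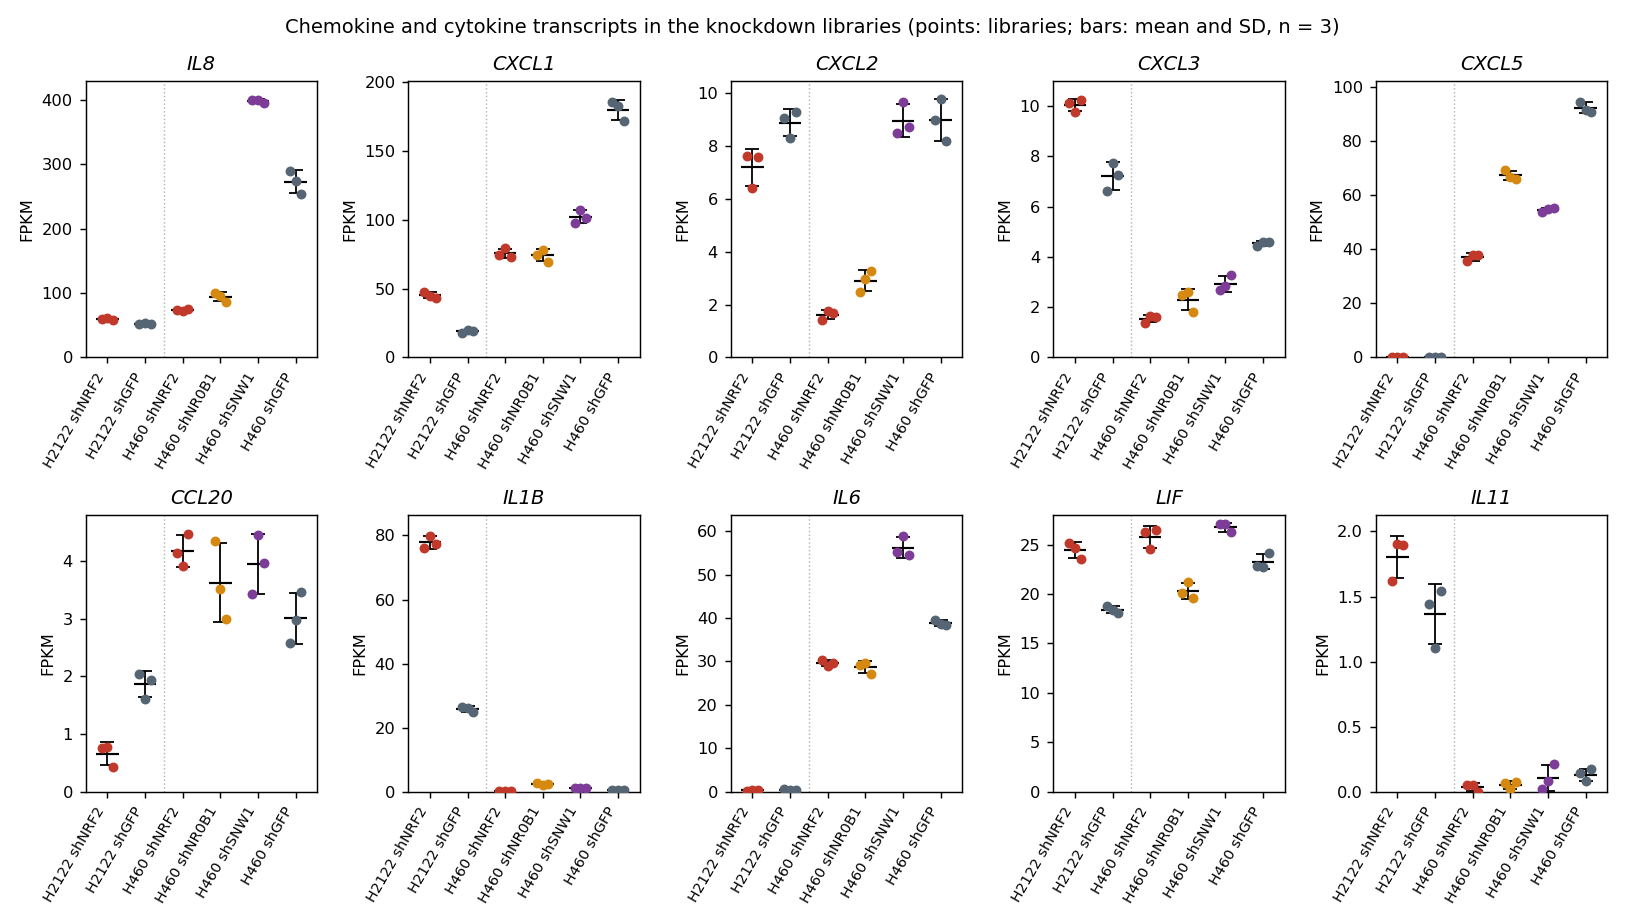
FPKM of the 10 transcripts in each knockdown library, with group on the x axis, H2122 left and H460 right of the dotted line. Points are libraries and bars the mean and SD of 3; IL8 spans 71.9 to 400.4 FPKM over the H460 libraries and 52.0 to 60.7 over the H2122 libraries, and CXCL5 and IL6 sit near 0 in H2122 as IL11 does in H460.

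The neutrophil-attracting CXC chemokines fell together after knockdown of NRF2 or NR0B1 in H460: 5 of 5 were lower in each. Over all genes tested, 39% were lower in shNRF2 and 36.8% in shNR0B1 cells. IL8 stood at 73.6, 71.9 and 75.4 FPKM in shNRF2 libraries, at 100.7, 95.9 and 86.7 in shNR0B1, at 400.1, 400.4 and 395.3 in shSNW1, and at 290.0, 273.5 and 254.4 in shGFP. The 4 groups did not overlap, with the order shSNW1, shGFP, shNR0B1, shNRF2 from high to low. The group means were 27.0%, 34.6% and 146% of the shGFP mean for shNRF2, shNR0B1 and shSNW1. The log2 change was -1.87 ± 0.0525 in shNRF2 cells (limma adjusted p = 1.249e-12), -1.52 ± 0.0525 in shNR0B1 cells (adjusted p = 4.376e-11) and 0.55 ± 0.0525 in shSNW1 cells (adjusted p = 7.25e-07). IL8 is the main neutrophil chemokine of human epithelial cells and was the most abundant member in every H460 group but shNRF2, where CXCL1 stood level with it.

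CXCL1, a CXCR2 ligand, stood at 74.1, 79.5 and 73.0 FPKM in shNRF2 libraries, at 74.6, 78.2 and 69.4 in shNR0B1, at 97.8, 107.4 and 101.5 in shSNW1, and at 185.3, 182.9 and 171.8 in shGFP. All 9 knockdown libraries thus lay below the 3 shGFP libraries, with shNRF2 and shNR0B1 overlapping. The log2 change was -1.24 ± 0.0503 in shNRF2, -1.27 ± 0.0503 in shNR0B1 and -0.81 ± 0.0503 in shSNW1 cells (limma adjusted p = 3.722e-11, 1.472e-10 and 1.141e-08 in that order). So in shSNW1 cells CXCL1 was lower while IL8, from the same cluster, was higher than in shGFP cells.

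CXCL2, a further CXCR2 ligand, stood at 1.42, 1.76 and 1.69 FPKM in shNRF2 libraries, at 2.46, 2.99 and 3.25 in shNR0B1, at 8.50, 9.67 and 8.74 in shSNW1, and at 8.996, 9.80 and 8.18 in shGFP. Knockdown of NRF2 gave the largest fall among the members in H460, to 18.04% of the shGFP mean and a log2 change of -1.93 ± 0.0832 (limma adjusted p = 6.966e-11). In shNR0B1 cells it was -1.36 ± 0.0832 (adjusted p = 8.466e-09). The shSNW1 and shGFP libraries overlapped, and the log2 difference of -0.00 had a 95% interval of -0.18 to 0.18 (limma adjusted p = 0.987). On recovered reads, shNRF2 libraries held 98 CXCL2 reads in all and shGFP libraries 673, a depth-scaled ratio of 0.180 with an exact 95% interval of 0.144 to 0.223 that covers counting error only.

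CXCL3, close in sequence to CXCL1 and CXCL2, ran from 1.37 to 1.63 FPKM in shNRF2 libraries, 1.81 to 2.60 in shNR0B1, 2.67 to 3.28 in shSNW1 and 4.44 to 4.61 in shGFP. No 2 of these ranges overlapped, and each knockdown lay below the control. The log2 change was -1.13 ± 0.0879, -0.76 ± 0.0879 and -0.50 ± 0.0879 in shNRF2, shNR0B1 and shSNW1 cells (limma adjusted p = 3.443e-08, 4.246e-06 and 0.000198). CXCL1, CXCL2 and CXCL3 are near-identical copies in parts, and how reads that fit several of them were counted is not given in the sources used here, so their split is uncertain.

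CXCL5, also a CXCR2 ligand, stood at 35.6, 38.0 and 38.0 FPKM in shNRF2 libraries, at 69.4, 66.7 and 66.1 in shNR0B1, at 54.0, 55.0 and 55.3 in shSNW1, and at 94.8, 91.6 and 91.0 in shGFP. None of the 4 groups overlapped, and the order from high to low was shGFP, shNR0B1, shSNW1, shNRF2. Its log2 change was -1.29 ± 0.0341 in shNRF2 cells, -0.45 ± 0.0341 in shNR0B1 cells and -0.75 ± 0.0341 in shSNW1 cells (limma adjusted p = 7.821e-13, 6.535e-08 and 6.381e-10). CXCL5 was the CXC member with the smallest fall in shNR0B1 cells, and there it was higher than in shSNW1 cells, by 0.29 ± 0.0341 (limma adjusted p = 4.744e-06).

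**Figure D3:**
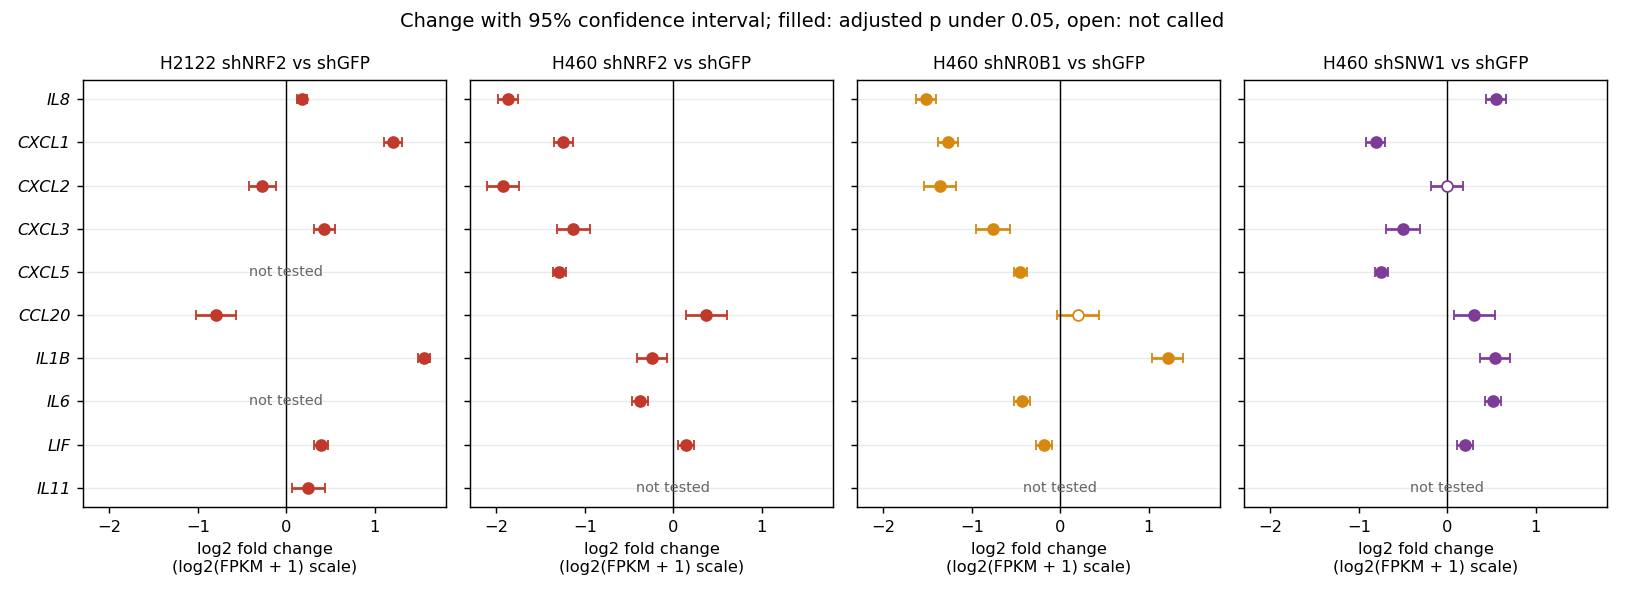
Log2 fold change of each member against shGFP on the log2(FPKM + 1) scale, with its 95% confidence interval, in H2122 shNRF2 and in H460 shNRF2, shNR0B1 and shSNW1 cells. Filled points passed an adjusted p of 0.05; the 5 CXC chemokines lie left of 0 in H460 shNRF2 and shNR0B1 cells, between -1.93 and -0.45.

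In H2122 the same chemokines answered NRF2 knockdown otherwise: 3 of the 4 tested were higher and 1 lower. Over all genes tested, 48.8% were higher and 38.5% lower. CXCL1 stood at 47.7, 44.3 and 43.4 FPKM in shNRF2 libraries and at 17.9, 19.8 and 19.1 in shGFP libraries, which did not overlap. Its mean was 238% of the shGFP mean, with a log2 change of 1.21 ± 0.0447 (limma adjusted p = 5.086e-09). IL8 stood at 60.0, 60.7 and 58.6 FPKM in shNRF2 libraries and at 52.0, 53.4 and 52.6 in shGFP libraries. The groups did not overlap, yet the step was small, at 0.18 ± 0.0242 (limma adjusted p = 6.837e-05), beside a median of 0.09 over all genes. CXCL3 ran from 9.78 to 10.2 FPKM in shNRF2 and from 6.63 to 7.75 in shGFP libraries, a change of 0.43 ± 0.0530 (limma adjusted p = 3.541e-05). CXCL2 went the other way, with 6.40 to 7.62 FPKM in shNRF2 and 8.32 to 9.29 in shGFP libraries, a change of -0.27 ± 0.0667 (limma adjusted p = 0.00364). CXCL5 was near 0 in H2122, with 4 reads over the shNRF2 libraries and 1 over the shGFP libraries (scaled ratio 4.14, exact 95% interval 0.410 to 203.9, counting error only).

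The difference between the lines in the response to NRF2 knockdown was tested as an interaction over 12 libraries, in which 71.6% of 12798 genes were called, 37.4% higher and 34.3% lower, and 9 members were higher and 1 lower. All 10 members were tested, CXCL5 and IL6 through H460 libraries alone and IL1B and IL11 through H2122 libraries alone. It is the H2122 log2 change minus the H460 log2 change. It came to 2.45 ± 0.0682 for CXCL1 (limma adjusted p = 9.979e-12), which was higher in H2122 shNRF2 and lower in H460 shNRF2 cells than in their controls. For IL8 it was 2.05 ± 0.0571, for CXCL2 1.66 ± 0.109 and for CXCL3 1.56 ± 0.0786 (limma adjusted p = 9.979e-12, 2.317e-08 and 1.931e-09). For CXCL5 the value of 1.32 ± 0.0555 (limma adjusted p = 3.801e-10) repeats the fall in H460, since H2122 cells had almost none of the transcript. Knockdown lasted 24 h in H2122 and 72 h in H460, so the line and the time cannot be told apart.

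CCL20, the ligand of CCR6, was low throughout. It ran from 0.428 to 0.777 FPKM in H2122 shNRF2 and from 1.61 to 2.04 in H2122 shGFP libraries, where it entered the test only through the shGFP libraries. The log2 change was -0.79 ± 0.0986 (limma adjusted p = 3.672e-05), and the reads were 35 in shNRF2 and 104 in shGFP libraries, a scaled ratio of 0.348 (exact 95% interval 0.231 to 0.515). In H460 it ran from 3.91 to 4.47 FPKM in shNRF2, 2.996 to 4.36 in shNR0B1, 3.42 to 4.45 in shSNW1 and 2.57 to 3.46 in shGFP libraries, so that shNR0B1 and shSNW1 libraries overlapped the control. The rise in shNRF2 cells was 0.37 ± 0.108 (limma adjusted p = 0.00596), and the interaction of the lines was -1.17 ± 0.139 (limma adjusted p = 6.765e-06), the only negative value among the members. In shNR0B1 cells the difference of 0.20 was not called (95% interval -0.03 to 0.44, limma adjusted p = 0.111), but it was called without shNR0B1 replicate 3 (0.30, adjusted p = 0.0267) and without shGFP replicate 3 (0.28, adjusted p = 0.044). With libraries scaled to a common read total it was called as well (0.26, limma adjusted p = 0.0422). In shSNW1 cells it was called at 0.30 ± 0.108 (limma adjusted p = 0.0233). That call was lost without shSNW1 replicate 2 or 3 (0.23 and 0.30, adjusted p = 0.101 and 0.0538) and without shGFP replicate 1 or 2 (0.23 and 0.30, adjusted p = 0.106 and 0.051).

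IL1B, an inflammatory cytokine of the IL-1 family, was high in H2122 and rose further with NRF2 knockdown. It stood at 76.1, 79.9 and 77.5 FPKM in shNRF2 libraries and at 26.4, 26.2 and 24.9 in shGFP libraries. The groups did not overlap, the shNRF2 mean was 301% of the shGFP mean, and the log2 change of 1.56 ± 0.0311 was the largest positive change of a member against shGFP on this scale (limma adjusted p = 1.216e-10), though by the ratio of means IL1B was 5.31-fold higher in H460 shNR0B1 cells and 3.01-fold higher in H2122 shNRF2 cells. In H460, IL1B stood at 0.212, 0.196 and 0.271 FPKM in shNRF2 libraries, 2.78, 2.00 and 2.32 in shNR0B1, 1.09, 1.04 and 1.17 in shSNW1 and 0.5002, 0.451 and 0.389 in shGFP. These 4 groups did not overlap, and IL1B entered the H460 test only through the shNR0B1 and shSNW1 libraries. On reads, it had 229 in shNR0B1 and 42 in shGFP libraries, a scaled ratio of 5.20 (exact 95% interval 3.73 to 7.41, counting error only). With 96 reads in shSNW1 libraries the ratio was 2.42 (1.67 to 3.57), and with 17 in shNRF2 libraries it was 0.5005 (0.267 to 0.898).

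The log2 changes of IL1B in H460 were 1.21 ± 0.0798 in shNR0B1, 0.54 ± 0.0798 in shSNW1 and -0.24 ± 0.0798 in shNRF2 cells (limma adjusted p = 1.694e-08, 4.56e-05 and 0.014). In shNR0B1 cells it was the only member called higher, beside 5 lower CXC chemokines. As IL1B entered the test only through shNR0B1 and shSNW1 libraries, its direction in both was largely set by the minimum. The interaction of the lines was 1.79 ± 0.0623 (limma adjusted p = 6.149e-11), most of it the H2122 change of 1.56, since IL1B was near 0 in H460 shNRF2 and shGFP cells. Immune markers were summed beside IL1B because myeloid cells are its usual source: the 10 markers came to 105.9 to 109.1 FPKM in H2122 shNRF2 and 46.3 to 47.8 in H2122 shGFP libraries. The 3 markers tested were all called higher. Of these, LYZ and CD79A entered the test only through the shNRF2 libraries, so their direction was largely set by the minimum. CD68, a lysosomal protein of macrophages, averaged 96.5 FPKM in shNRF2 and 45.5 in shGFP cells (1.07 ± 0.0244). LYZ, the lysozyme of myeloid and some epithelial cells, averaged 5.16 FPKM in shNRF2 and 0.359 in shGFP cells (2.18 ± 0.0612). CD79A, a B cell receptor chain, averaged 4.61 FPKM in shNRF2 and 0.327 in shGFP cells (2.09 ± 0.0785). CD3E was at 0 in both groups, and PTPRC was at 0.00202 FPKM in shNRF2 and 0 in shGFP cells. In H460, CD14 averaged 7.95 FPKM in shNRF2, 10.7 in shNR0B1, 2.61 in shSNW1 and 5.38 in shGFP cells. CD68 averaged 21.6, 26.3, 26.5 and 25.2 FPKM in the same order. The part of these markers in the IL1B values was not tested.

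IL6, which signals through IL6R and gp130, was made by H460 and hardly by H2122. H460 libraries had 30.3, 28.9 and 29.7 FPKM with shNRF2, 29.2, 29.6 and 27.0 with shNR0B1, 55.2, 59.0 and 54.4 with shSNW1, and 39.6, 38.7 and 38.3 with shGFP. The shSNW1 libraries lay above and the shNRF2 and shNR0B1 libraries below the control, without overlap. The log2 change was -0.38 ± 0.0413 in shNRF2, -0.43 ± 0.0413 in shNR0B1 and 0.52 ± 0.0413 in shSNW1 cells (limma adjusted p = 1.16e-06, 6.67e-07 and 1.212e-07). In H2122 it ran from 0.194 to 0.418 FPKM in shNRF2 and 0.316 to 0.535 in shGFP libraries (22 and 32 reads, scaled ratio 0.712, exact 95% interval 0.394 to 1.26). The interaction of 0.25 ± 0.0941 (limma adjusted p = 0.0286) rests on a gene near 0 in H2122: it was -0.012 with a pseudocount of 0.1 and -0.24 by limma-voom on reads. It also lost its call without any of 5 single libraries: H2122 shNRF2 replicate 3 (0.18), H2122 shGFP replicate 2 (0.21) or 3 (0.24), H460 shNRF2 replicate 2 (0.23) or H460 shGFP replicate 1 (0.24).

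LIF, a gp130 cytokine that binds LIFR, had the narrowest range of group means among the members in H460, though not in H2122. It ran from 23.6 to 25.2 FPKM in H2122 shNRF2 and 18.1 to 18.8 in H2122 shGFP libraries, a rise of 0.39 ± 0.0333 (limma adjusted p = 2.11e-06). In H460 it ran from 24.5 to 26.5 FPKM in shNRF2, 19.6 to 21.2 in shNR0B1, 26.3 to 27.1 in shSNW1 and 22.8 to 24.2 in shGFP libraries. Its highest H460 group mean was 1.32 fold its lowest, against 5.41 fold for IL8. The changes were 0.14 ± 0.0417, -0.19 ± 0.0417 and 0.20 ± 0.0417 in shNRF2, shNR0B1 and shSNW1 cells (limma adjusted p = 0.00677, 0.00115 and 0.000953). The interaction was 0.25 ± 0.0558 (limma adjusted p = 0.00127), and by limma-voom on reads it was 0.12 and no longer called (adjusted p = 0.0645).

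IL11, the remaining gp130 cytokine, was measured at low levels in H2122 only. It ran from 1.62 to 1.91 FPKM in shNRF2 and from 1.10 to 1.54 in shGFP libraries, which did not overlap. The change was 0.25 ± 0.0831 (limma adjusted p = 0.0173). The call was lost without shNRF2 replicate 2 or 3 (0.23 each, adjusted p = 0.0603 and 0.0578) and without shGFP replicate 2 (0.17, adjusted p = 0.059). H460 knockdown libraries held at most 9 IL11 reads, with 4 reads over shNRF2, 8 over shNR0B1, 14 over shSNW1 and 19 over shGFP libraries. The scaled ratio to shGFP was 0.260 (exact 95% interval 0.0644 to 0.783) in shNRF2, 0.402 (0.152 to 0.961) in shNR0B1 and 0.781 (0.363 to 1.64) in shSNW1 libraries. The interaction of 0.38 ± 0.102 (limma adjusted p = 0.0046) sets a small rise in H2122 against a line near 0.

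Set against each other, the H460 knockdowns separated by member. In shNRF2 cells against shNR0B1 cells, 5 of the 9 members tested were lower and 1 was higher (36.7% and 37.8% of all genes, 74.5% together). CXCL5 was lower by 0.84 ± 0.0341 in shNRF2 cells, IL1B by 1.45 ± 0.0798 and IL8 by 0.35 ± 0.0525, while LIF was higher by 0.33 ± 0.0417 (limma adjusted p = 4.943e-11, 1.163e-09, 3.35e-05 and 6.845e-06). The direction of IL1B was largely set by the minimum, which shNRF2 libraries did not reach. CXCL1 and IL6 were not called, with 95% intervals of the log2 difference of -0.08 to 0.14 and -0.04 to 0.14. CCL20 was not called either (0.17, adjusted p = 0.165), except without shNR0B1 replicate 1 (0.28, limma adjusted p = 0.0263).

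In shNRF2 cells against shSNW1 cells, 7 members were lower and 0 higher (39.1% and 39.6% of all genes, 78.7% together), led by IL8 at -2.42 ± 0.0525 (limma adjusted p = 8.03e-14). CXCL2 differed by -1.93 ± 0.0832 and IL6 by -0.90 ± 0.0413 (limma adjusted p = 7.805e-11 and 1.426e-10). In shNR0B1 cells against shSNW1 cells, 6 were lower and 2, CXCL5 and IL1B, were higher (33.1% and 34.7% of all genes, 67.8% together). IL8 again showed the widest gap, at -2.07 ± 0.0525 (limma adjusted p = 4.722e-12). CXCL3 was lower by 0.26 ± 0.0879 (limma adjusted p = 0.0192), a call lost without shNR0B1 replicate 3 (-0.15) or shSNW1 replicate 3 (-0.19). All of these comparisons share libraries with those against shGFP.

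Receptors and signalling genes of these proteins were counted from lists of the pathway, and no list was tested as a set. These lists were also chosen with earlier results of these data known. The counts stand beside the shares over all genes, of which 48.8% were higher and 38.5% lower in H2122 shNRF2 cells, 40.9% and 39% in H460 shNRF2, 33.1% and 36.8% in shNR0B1, and 30.8% and 36.4% in shSNW1 cells. Of 11 receptors, 8 were tested in H2122, where shNRF2 cells had 4 higher and 2 lower, fewer called in all than the 87.3% of all genes. Of 7 tested in H460, 6 were higher and 1 lower in shNRF2, 2 higher and 4 lower in shNR0B1, and 1 higher and 6 lower in shSNW1 cells. IL1R1, the signalling receptor of IL-1, averaged 6.65 FPKM in H2122 shNRF2 and 2.59 in shGFP cells (1.09 ± 0.0599), and 32.1 in H460 shNRF2, 10.3 in shNR0B1 and 17.2 in shGFP cells (0.87 ± 0.0430 and -0.69 ± 0.0430). IL6R, the IL6 binding chain, averaged 0.719 FPKM in H2122 shNRF2 and 2.67 in shGFP cells, and 17.1 in H460 shNRF2, 12.3 in shNR0B1, 2.09 in shSNW1 and 8.97 in shGFP cells. Its log2 change was thus -1.09 ± 0.0593 in H2122 shNRF2, 0.86 ± 0.0455 in H460 shNRF2, 0.42 ± 0.0455 in shNR0B1 and -1.69 ± 0.0455 in shSNW1 cells, all called by limma. IL1RAP, the shared chain of IL-1 family receptors, was higher in all 4 knockdowns, at 0.52 in H2122 shNRF2 and 0.63, 0.55 and 1.10 in H460 shNRF2, shNR0B1 and shSNW1 cells. IL1R2, the decoy receptor of IL-1, was lower in H2122 shNRF2 cells (-1.07 ± 0.0670), and IL11RA, the IL11 binding chain, was lower in shNR0B1 (-0.60 ± 0.0790) and shSNW1 cells (-0.9974 ± 0.0790). OSMR, which pairs with gp130, averaged 164.2 FPKM in shNRF2, 37.4 in shSNW1 and 97.4 in shGFP cells of H460 (0.75 ± 0.0339 and -1.36 ± 0.0339). The chemokine receptors CXCR1, CXCR2 and CCR6, picked out after their values were seen, did not pass the minimum, with CXCR2 at 0.0369 FPKM in H2122 shNRF2 and 0.00513 in shGFP cells and at 0.00666 in H460 shNRF2 and 0 in shGFP cells.

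Of 13 subunits and regulators of NF-kB tested in H2122 shNRF2 cells, 12 were higher and 1 lower, with a list median of 0.60, where 48.8% of all genes were higher. In H460 shNRF2 cells 4 of 12 were higher, 3 lower and 5 not called, with a median of -0.02, where 79.8% of all genes were called. NFKBIZ, the inducible cofactor IkB-zeta, averaged 37.9 FPKM in H2122 shNRF2 and 6.18 in shGFP cells (2.44 ± 0.0311), and 2.29 in H460 shNRF2 and 0.944 in shGFP cells (0.76 ± 0.0808). BIRC3, a known NF-kB target, averaged 25.0 FPKM in H2122 shNRF2 and 4.64 in shGFP cells (2.20 ± 0.0483). BCL3, a nuclear partner of NF-kB dimers, was higher in all 4 knockdowns, at 1.62 ± 0.0369 in H2122 shNRF2 and 0.96, 0.61 and 0.40 (± 0.0754 each) in H460 shNRF2, shNR0B1 and shSNW1 cells. In H460 shNRF2 cells TNFAIP3, the A20 inhibitor, averaged 115.6 FPKM against 52.5 in shGFP cells (1.12 ± 0.0360), while in shNR0B1 cells it averaged 39.1 (-0.42 ± 0.0360). The subunit gene NFKB2 averaged 12.95 FPKM in shNRF2, 12.2 in shNR0B1 and 21.3 in shGFP cells (-0.67 ± 0.0546 and -0.76 ± 0.0546). NFKBIA, the inhibitor IkB-alpha, averaged 83.2 FPKM in H2122 shNRF2 and 47.8 in shGFP cells (0.79 ± 0.0256), and 31.8 in shNR0B1, 29.6 in shSNW1 and 18.2 in shGFP cells of H460 (0.77 ± 0.0632 and 0.67 ± 0.0632). In all, 4 of 12 were higher and 6 lower in shNR0B1 cells, and 7 higher and 1 lower in shSNW1 cells, where RELB (0.46 ± 0.0798) and NFKBIE (0.38 ± 0.0632) were among the higher ones. The interaction between the lines was positive in 12 of 13 and negative in 1, where 37.4% of all genes had a called positive interaction, and was widest for BIRC3, at 2.52 ± 0.0802 (limma adjusted p = 3.012e-11).

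AP-1 and C/EBP factors gave 5 higher and 5 lower of 10 tested in H2122 shNRF2 cells, and 2 higher and 5 lower of 10 in H460 shNRF2 cells. FOSL1, a Fos-family AP-1 subunit, averaged 10.7 FPKM in H2122 shNRF2 and 44.7 in shGFP cells (-1.97 ± 0.0427), and 5.78 in H460 shNRF2, 14.3 in shNR0B1 and 25.1 in shGFP cells (-1.94 ± 0.0571 and -0.77 ± 0.0571). JUNB averaged 120.4 FPKM in H2122 shNRF2 and 51.0 in shGFP cells (1.22 ± 0.0422), and 65.9 in H460 shNRF2, 54.1 in shSNW1 and 35.4 in shGFP cells (0.88 ± 0.0729 and 0.59 ± 0.0729). JUN was lower (-1.52 ± 0.0423) and FOSL2 higher (1.00 ± 0.0238) in H2122 shNRF2 cells, and both were higher in shSNW1 cells (0.50 ± 0.0622 and 0.60 ± 0.0583). ATF3 was lower in H460 shNRF2 (-0.9986 ± 0.0848) and shNR0B1 cells (-0.34 ± 0.0848), as was CEBPB, a C/EBP factor of cytokine promoters, in shNRF2 cells (-0.82 ± 0.0958). In shNR0B1 cells 2 were higher and 5 lower, with FOS at -0.76 ± 0.111 and CEBPG at -0.40 ± 0.0750. In shSNW1 cells 6 were higher and 1 lower, with CEBPA at 0.48 ± 0.0927.

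Genes for mRNA decay factors gave 5 higher and 3 lower of 8 in H2122 shNRF2 cells, and in H460 2 higher and 6 lower in shNRF2, 0 higher and 7 lower in shNR0B1, and 2 higher and 2 lower in shSNW1 cells. ZFP36 (tristetraprolin), which binds AU-rich elements, averaged 31.0 FPKM in H2122 shNRF2 and 19.98 in shGFP cells (0.61 ± 0.0305). In H460 it averaged 17.0 FPKM in shNRF2, 15.3 in shNR0B1, 21.7 in shSNW1 and 32.1 in shGFP cells (-0.88 ± 0.0450, -1.02 ± 0.0450 and -0.55 ± 0.0450). ZC3H12A (regnase-1), an endonuclease that cuts IL6 mRNA, averaged 26.1 FPKM in H2122 shNRF2 and 14.7 in shGFP cells, and 3.22 in H460 shNRF2, 3.71 in shNR0B1, 7.98 in shSNW1 and 5.81 in shGFP cells. HNRNPD (AUF1) and KHSRP, further AU-rich element binders, were lower with NRF2 knockdown in both lines, at -0.61 ± 0.0280 and -0.96 ± 0.0257 in H2122 and at -1.002 ± 0.0369 and -0.78 ± 0.0341 in H460. The ZFP36 relatives ZFP36L2 and ZFP36L1 were lower in shNR0B1 cells (-0.85 ± 0.0543 and -0.75 ± 0.0562). In shSNW1 cells ZFP36L1 was lower (-0.34 ± 0.0562) and RC3H1 (roquin) higher (0.16 ± 0.0516).

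Genes of gp130 signalling gave 5 higher and 1 lower of 7 tested in H2122 shNRF2 cells, and of 8 tested in H460 5 higher and 3 lower in shNRF2, 1 higher and 4 lower in shNR0B1, and 5 higher and 2 lower in shSNW1 cells. STAT3 averaged 43.9 FPKM in H2122 shNRF2 and 28.3 in shGFP cells (0.62 ± 0.0279), and 39.0 in H460 shNRF2 and 19.8 in shGFP cells (0.95 ± 0.0385). The kinases JAK1, TYK2 and JAK2 were higher in H2122 shNRF2 cells (0.92 ± 0.0345, 0.60 ± 0.0373 and 0.60 ± 0.0530). In shNR0B1 cells TYK2 was higher (0.24 ± 0.0590) and JAK2 (-0.22 ± 0.0609), JAK1 (-0.22 ± 0.0404) and STAT3 (-0.13 ± 0.0385) were lower. The feedback inhibitor SOCS1 was higher in H460 shNRF2 cells (1.06 ± 0.142) and lower in shSNW1 cells (-0.69 ± 0.142). SOCS3, its relative, averaged 134.5 FPKM in H460 shNRF2, 114.5 in shSNW1 and 83.2 in shGFP cells (0.69 ± 0.0402 and 0.46 ± 0.0402). PTPN11, the phosphatase SHP2, was lower in H460 shNRF2 (-0.80 ± 0.0401) and higher in shSNW1 cells (0.29 ± 0.0401), where JAK1 was lower (-0.27 ± 0.0404). Of 8 inflammasome and caspase genes, 4 were tested in H2122 shNRF2 cells and 4 were higher, where 48.8% of all genes were higher and 87.3% called. They were NLRP1 (0.85 ± 0.0673), CASP4 (0.80 ± 0.0288), CASP1 (0.47 ± 0.0614) and CASP8 (0.07 ± 0.0314). The CASP8 change lay below the median of 0.09 over all genes. Of 2 tested in H460, CASP4 was lower in shNRF2 (-0.20 ± 0.0363) and shSNW1 cells (-0.13 ± 0.0363), and CASP8 was higher in shNR0B1 (0.29 ± 0.0481) and shSNW1 cells (0.21 ± 0.0481).

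**Figure D4:**
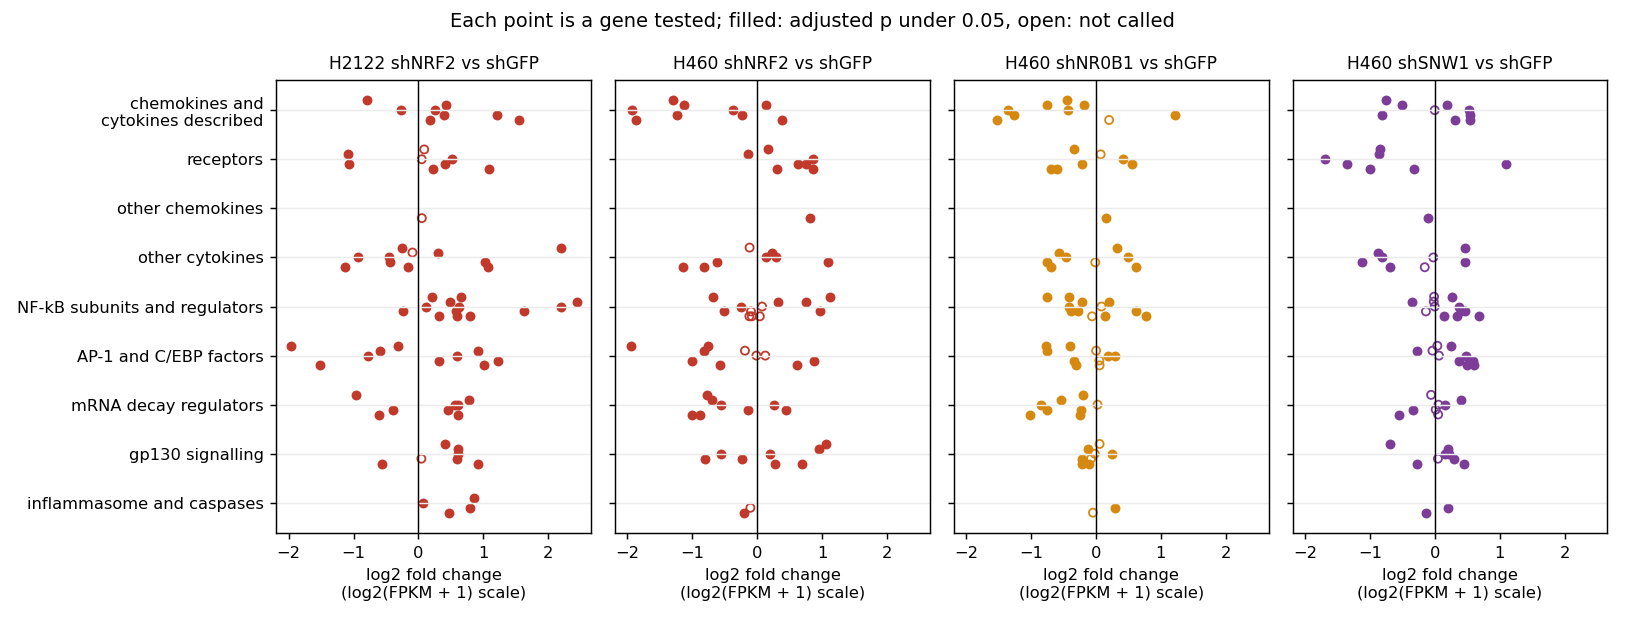
Log2 fold change against shGFP, on the log2(FPKM + 1) scale, of every tested gene in the list of 10 chemokines and cytokines and in 8 lists of related genes, by knockdown. Each point is a gene, filled where the adjusted p was under 0.05; the row of NF-kB genes lies right of 0 for 12 of 13 genes in H2122 shNRF2 cells.

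Other secreted factors were mostly low: of 12 other chemokines only CXCL16, a transmembrane chemokine, was tested. It averaged 29.2 FPKM in H460 shNRF2 and 16.2 in shGFP cells (0.81 ± 0.0399), opposite to the CXC cluster, and was called at 0.15 in shNR0B1 and -0.11 in shSNW1 cells (± 0.0399 each). Of 18 other cytokines 11 were tested in H2122, with 4 higher and 6 lower in shNRF2 cells, and 8 in H460, with 4 higher and 3 lower in shNRF2, 3 and 4 in shNR0B1, and 2 and 4 in shSNW1 cells. IL23A, a subunit of IL-23, averaged 8.40 FPKM in H2122 shNRF2 and 1.06 in shGFP cells (2.19 ± 0.0747), and IL1RN, the IL-1 receptor antagonist, 111.8 and 54.3 FPKM (1.03 ± 0.0359). IL32 was lower (-1.12 ± 0.0349) and the vascular growth factor VEGFA higher (1.07 ± 0.0396) in H2122 shNRF2 cells. IL1A, the partner cytokine of IL1B, averaged 0.0879 FPKM in H460 shNRF2, 2.68 in shNR0B1, 1.17 in shSNW1 and 1.41 in shGFP cells. It was lower in shNRF2 (-1.14 ± 0.0820) and higher in shNR0B1 cells (0.61 ± 0.0820), as IL1B was, but was not called in shSNW1 cells (-0.15, limma adjusted p = 0.111), where IL1B was higher. TGFB2 averaged 62.0 FPKM in H460 shNRF2, 16.6 in shNR0B1, 12.6 in shSNW1 and 28.6 in shGFP cells. TGFB1 was lower in all 3 H460 knockdowns (-0.81, -0.69 and -0.69 in shNRF2, shNR0B1 and shSNW1, ± 0.0740 each), and CSF1 was lower in shNR0B1 (-0.57 ± 0.0551) and shSNW1 cells (-0.87 ± 0.0551). IL12A was lower in shNRF2 (-0.62 ± 0.118) and IL18 in shSNW1 cells (-0.81 ± 0.0995). IL12A averaged 0.328 FPKM in shNRF2 and 1.05 in shGFP cells, so the minimum partly set its direction. Markers of fibroblasts and endothelium moved beside these in H460, with sums over 10 genes of 42.5 to 44.6 FPKM in shNRF2, 24.8 to 26.0 in shNR0B1, 15.7 to 17.7 in shSNW1 and 17.96 to 18.6 in shGFP libraries. In shNRF2 cells 4 of the 6 tested were higher, led by the matrix proteins DCN at 10.3 against 0.800 FPKM and LUM at 22.7 against 8.46 FPKM in shGFP cells. KDR, an endothelial receptor, averaged 3.48 FPKM in shNRF2 and 0.819 in shGFP cells (1.30 ± 0.0586), and PDGFRB, a stromal receptor, 3.003 FPKM in shNRF2 and 1.56 in shGFP cells (0.64 ± 0.0587), while the collagen COL3A1 was lower (-0.68 ± 0.0576) and CDH5, a further endothelial gene, was at 0 in all 4 groups. KDR entered the H460 test only through the shNRF2 libraries, and DCN lay under 1 FPKM in every shGFP library. The minimum thus partly set the count of higher markers. The part of these markers in the chemokine values was not tested.

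BPK29 and BPK9 were each compared with DMSO and with each other. In BPK29 cells against DMSO, 7 of the 8 members tested were higher and 1 lower, where 22.8% of all 12246 genes tested were higher and 30.6% lower, 53.4% together. In BPK9 cells against DMSO 1 member was higher and 0 lower (1.14% and 1.05% of all genes, 2.18% together), and in BPK29 cells against BPK9 cells 5 were higher and 1 lower (21.5% and 28.6%, 50.1% together). The median log2 change of the 8 members was 0.19, 0.06 and 0.11 in these 3 pairs of groups, each adjusted over all genes, beside -0.02, -0.00 and -0.01 over all genes. IL1B and IL11 lay under 1 RPM in all compound groups and were not tested. Cell type markers moved beside these values: the 4 epithelial markers tested, KRT7, KRT8, KRT18 and KRT19, were all lower with BPK29 than with DMSO, by -0.37 to -0.22. The 10 fibroblast and endothelial markers summed to 71.7 to 73.5 RPM in BPK29, 101.6 to 102.8 in BPK9 and 106.5 to 112.9 in DMSO libraries, and 3 of the 6 tested were lower with BPK29, led by COL3A1 at 47.1 RPM against 79.4 in DMSO cells. KDR, among the lower ones, averaged 0.418 RPM with BPK29 and 1.01 with DMSO, so the minimum partly set its direction. The part of the epithelial, fibroblast and endothelial markers in the member values was not tested.

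IL8 stood at 389.9, 407.1 and 397.4 RPM in BPK29 libraries, 333.7, 359.3 and 370.3 in BPK9 libraries and 332.4, 356.0 and 342.6 in DMSO libraries. Only the BPK29 libraries stood clear of DMSO, and BPK9 and DMSO overlapped. The BPK29 mean was 116% of the DMSO mean, with a log2 change of 0.21 ± 0.0280 against DMSO (limma adjusted p = 2.063e-08) and 0.17 ± 0.0280 against BPK9 (adjusted p = 2.703e-06). For BPK9 against DMSO it was 0.04 with a 95% interval of -0.01 to 0.10 (limma adjusted p = 0.457).

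Higher values with BPK29 than with DMSO were also found for CXCL1 (0.12 ± 0.0301), CXCL2 (0.31 ± 0.0663), CXCL3 (0.44 ± 0.0939), CXCL5 (0.13 ± 0.0303) and LIF (0.17 ± 0.0338), with limma adjusted p from 5.715e-05 for LIF to 0.00102 for CXCL1. CXCL3 stood at 6.97, 6.27 and 7.16 RPM in BPK29 libraries, 5.42, 3.95 and 4.75 in BPK9 libraries and 4.78, 4.40 and 5.07 in DMSO libraries, so that BPK29 lay above both other groups. It was also higher than in BPK9 cells, by 0.46 ± 0.0939 (limma adjusted p = 7.983e-05), as was CXCL5, by 0.14 ± 0.0303 (limma adjusted p = 0.000249). CCL20 ran from 3.56 to 6.01 RPM in BPK29, 3.73 to 4.55 in BPK9 and 2.89 to 3.68 in DMSO libraries. The BPK29 and DMSO libraries overlapped, and the change of 0.36 ± 0.113 (limma adjusted p = 0.0061) was 0.19 without BPK29 replicate 2 (adjusted p = 0.168) and lost its call with no minimum level (adjusted p = 0.0756) and on log2(FPKM + 1) (adjusted p = 0.0679).

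CXCL1 was the member called with BPK9. It stood at 194.0, 195.6 and 204.4 RPM in BPK29 libraries, 197.1, 205.1 and 220.3 in BPK9 libraries and 178.2, 184.7 and 184.4 in DMSO libraries. Both compounds lay above DMSO and overlapped each other, and BPK9 differed from DMSO by 0.18 ± 0.0301 (limma adjusted p = 0.000314). That call was absent with no minimum level (adjusted p = 0.102) and on log2(FPKM + 1) (adjusted p = 0.123). BPK29 against BPK9 gave -0.07 for CXCL1 with a 95% interval of -0.13 to -0.01 (limma adjusted p = 0.0656), and this was called without BPK29 replicate 3 (-0.09, adjusted p = 0.0308) or BPK9 replicate 1 (-0.10, adjusted p = 0.00625). CXCL2 and LIF were called higher with BPK29 than with BPK9 at 0.16 ± 0.0663 and 0.08 ± 0.0338 (limma adjusted p = 0.046 and 0.0351). Both calls were lost with no minimum level (adjusted p = 0.137 and 0.106) and on log2(FPKM + 1) (0.122 and 0.114). The CXCL2 call was lost without BPK29 replicate 1 (0.13) or 2 (0.13), BPK9 replicate 1 (0.10) or 2 (0.13), or DMSO replicate 2 (0.16). The LIF call was lost without BPK29 replicate 2 (0.07) or 3 (0.09), or BPK9 replicate 2 (0.07) or 3 (0.07).

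IL6 was the member that fell with BPK29. It stood at 18.9, 16.9 and 20.8 RPM in BPK29 libraries, at 27.5, 25.9 and 26.4 in BPK9 libraries and at 26.6, 28.4 and 26.5 in DMSO libraries. All 3 BPK29 libraries lay below all 6 others. The BPK29 mean was 69.3% of the DMSO mean, with a log2 change of -0.51 ± 0.0576 against DMSO (limma adjusted p = 5.134e-10) and -0.48 ± 0.0576 against BPK9 (adjusted p = 2.973e-09). BPK9 against DMSO gave -0.03 with a 95% interval of -0.15 to 0.09 (limma adjusted p = 0.849). IL1B had 14 reads over the BPK29 libraries, 36 over BPK9 and 38 over DMSO, a scaled ratio of BPK29 to DMSO of 0.348 (exact 95% interval 0.174 to 0.658, counting error only). IL11 had 24, 16 and 11 reads over the same groups, a ratio of BPK29 to DMSO of 2.06 (0.973 to 4.67).

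**Figure D5:**
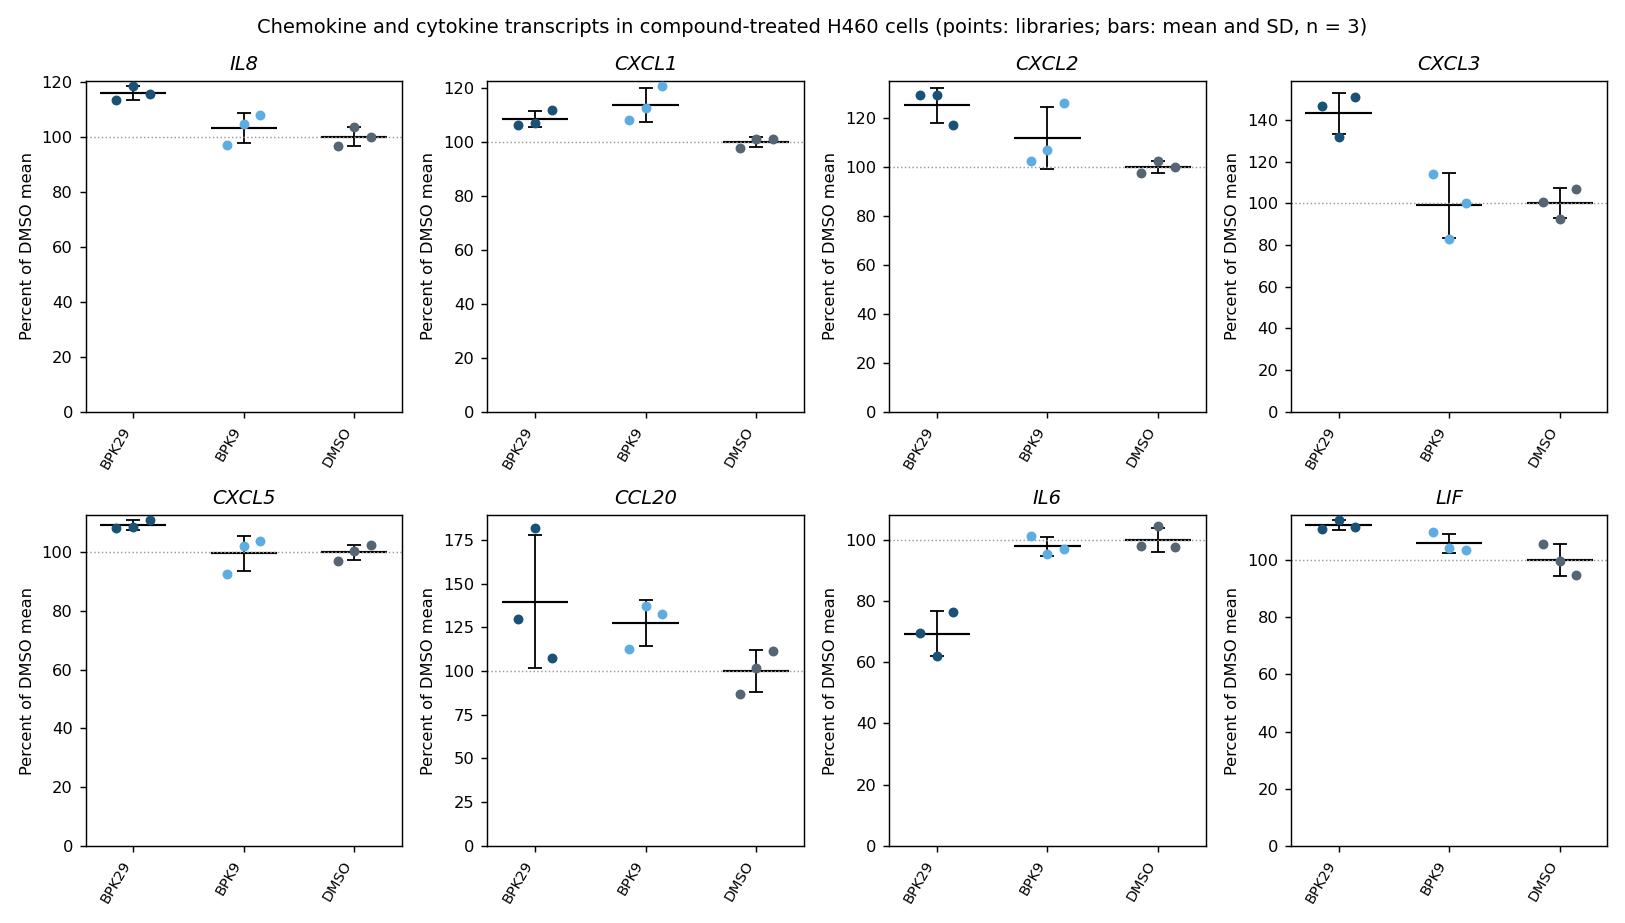
RPM of the 8 members tested in compound-treated H460 cells, as percent of the DMSO mean, with BPK29, BPK9 and DMSO on the x axis. Points are libraries and bars the mean and SD of 3; IL6 lies at 69.3% of DMSO with BPK29 and at 97.8% with BPK9, and CXCL3 at 143% and 99.1%.

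The related genes were counted for BPK29 against DMSO as well, where 22.8% of all genes were higher and 30.6% lower. AP-1 and C/EBP factors gave 8 higher and 0 lower of 10 tested, with JUNB at 58.6 RPM against 31.3 in DMSO cells (0.88 ± 0.0481), JUN at 0.63 ± 0.0681, CEBPB at 0.62 ± 0.0442 and FOSL1 at 118.5 against 79.8 RPM (0.56 ± 0.0325). NF-kB genes gave 5 higher and 3 lower of 14, a share called near the 53.4% of all genes, with BIRC3 at 0.46 ± 0.0909, NFKBIA at 0.44 ± 0.0417, RELB at 0.33 ± 0.109 and NFKBIB at -0.16 ± 0.0543. Decay factors gave 5 higher and 3 lower of 8, with ZFP36 at 26.1 against 16.2 RPM (0.66 ± 0.0584), ZC3H12A at 0.52 ± 0.0596, HNRNPD at -0.39 ± 0.0238 and RC3H1 at 0.22 ± 0.0617. Of 7 receptors tested 4 were higher and 1 lower, with IL1R1 at 83.3 against 49.0 RPM (0.75 ± 0.0356), IL6R at 21.7 against 14.8 RPM (0.52 ± 0.0606), LIFR at -0.43 ± 0.0330 and IL1RAP at 0.29 ± 0.0556. Of 7 gp130 signalling genes 2 were higher, JAK2 (0.29 ± 0.0761) and TYK2 (0.22 ± 0.0371), and 2 lower, PTPN11 (-0.14 ± 0.0246) and SOCS3, which averaged 112.3 RPM with BPK29 and 145.1 with DMSO (-0.37 ± 0.0299). Of 8 other cytokines IL1A (0.50 ± 0.110) and TGFB1 (0.48 ± 0.0385) were higher and TGFB2 (-0.69 ± 0.0464) and IL18 (-0.45 ± 0.139) were among 3 lower, while CXCL16 (0.22 ± 0.0554) and CASP4 (0.19 ± 0.0393) were higher. IL18 averaged 0.587 RPM with BPK29 and 1.16 with DMSO, so the minimum partly set its direction. With BPK9, where 2.18% of all genes were called, IL1R1 (0.18 ± 0.0356) and 3 AP-1 and C/EBP factors were higher, JUNB at 0.26 ± 0.0481, JUND at 0.20 ± 0.0473 and CEBPB at 0.17 ± 0.0442. HNRNPD was lower with BPK9 (-0.09 ± 0.0238), and 0 of 14 NF-kB genes were called by limma.

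The genes whose pattern over the 6 knockdown group means was most like that of IL8 were STMN3, a stathmin-family gene (Pearson r = 0.981), the small nucleolar RNAs SNORA69 (0.943), SNORD78 (0.943) and SNORD75 (0.935), and NTPCR, a nucleoside triphosphatase (0.941). They are the top 5 of 5629 genes that vary among the groups, over 6 points that share their libraries. The members were left out of this ranking, so their likeness to IL8 was not ranked. STMN3 averaged 0.292 and 0.442 FPKM in H2122 shNRF2 and shGFP cells, and 0.778, 0.710, 2.60 and 2.26 FPKM in H460 shNRF2, shNR0B1, shSNW1 and shGFP cells.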

How the data were processed

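RNA sequencing values came as 1 deposited table of FPKM for 27 libraries. Per the submitters' processing notes, STAR, featureCounts and DESeq2 were used with the human build hg19; for versions, annotation, filters and strand, nothing is given in the sources used here. Whole reads were recovered from the steps of the FPKM values (100% of values whole within 0.02 reads), giving the depth. Gene lengths behind the compound columns differed over 2 fold from those behind the knockdown columns for 53.2% of 12095 genes, so compounds were analysed as RPM; a wrong length leaves ratios between libraries as they are. Tests used limma 3.58.1 (R 4.3.3) with a mean-variance trend on log2(value + 1), a minimum of 1 in at least 3 fitted libraries and Benjamini-Hochberg adjustment over all genes tested: 6 H2122, 12 H460, 12 (interaction) and 9 compound libraries. The fits were tested on simulated data. Intervals on reads are exact conditional binomial. The members were named in full; of each pathway list, up to 4 called genes with the largest change were named for each knockdown against shGFP and each compound against DMSO, with a few of the same genes also given in other groups, and of the marker lists only those beside a result; members and lists were chosen with earlier results of these data known. Alternatives were another pseudocount, no minimum, a common read total, limma-voom with TMM scaling coded directly, a replicate block, leaving out each library and, for compounds, log2(FPKM + 1). The ChIP peaks were not used here.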

Additional observations from a re-analysis of the deposited data

Results flagged for a closer look

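Each of the 10 members was picked out because its response to NRF2 knockdown differed between H2122 and H460 by the interaction test; 71.6% of all genes tested did so. The difference, as the H2122 log2 change minus the H460 log2 change, was 2.05 for IL8, 2.45 for CXCL1, 1.66 for CXCL2, 1.56 for CXCL3, 1.32 for CXCL5, -1.17 for CCL20, 1.79 for IL1B, 0.25 for IL6, 0.25 for LIF and 0.38 for IL11. CXCL1, CXCL3, IL8 and IL1B were higher in H2122 shNRF2 and lower in H460 shNRF2 cells than in their controls, and CCL20 the reverse. CXCL2 was lower in both lines, by more in H460, and LIF was higher in both, by more in H2122. CXCL5 and IL6 in H2122 and IL1B and IL11 in H460 were near 0 with shNRF2 and shGFP, so their values mostly follow the other line.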

How the results depend on the processing

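Over all alternatives, 1488 member values kept their side of the threshold. A further 34 kept the direction and lost the call, 9 gained a call and 2 called values reversed. A change of sign in a value called in neither fit was counted among the 1488. Both reversals concern the IL6 interaction, at -0.012 with a pseudocount of 0.1 and -0.24 by limma-voom on recovered reads; IL6 was near 0 in H2122. BPK9 against DMSO was the unstable comparison: of 12246 genes tested, 267 were called, against 20 with no minimum level, 471 with the replicate block, 1 on log2(FPKM + 1) and 44 to 476 when single libraries were left out (44 without BPK9 replicate 2, 476 without BPK9 replicate 3, 61 without DMSO replicate 2 and 165 without DMSO replicate 3); it called 1 member, CXCL1, against 0 with no minimum level and 0 on log2(FPKM + 1). With no minimum level, the calls of CCL20 in shSNW1 and BPK29 cells (adjusted p = 0.057 and 0.0756) and of CXCL2 and LIF for BPK29 against BPK9 (0.137 and 0.106) were also lost, and on log2(FPKM + 1) those of CCL20 for BPK29 against DMSO (0.0679) and of CXCL2 and LIF for BPK29 against BPK9 (0.122 and 0.114). Deviations of same-numbered libraries were weakly correlated, with both signs in H460 (-0.305 to 0.283 over 18 pairs) and the compounds (-0.0409 to 0.204 over 9). In H2122 the correlations were all positive (0.0729 to 0.210 over 3 pairs). The numbers were not taken to pair samples. With the replicate block CXCL1 was called lower with BPK29 than with BPK9 (limma adjusted p = 0.0247) and no other member call changed. A common read total moved the median of all genes for shNRF2 against shNR0B1 to -0.09 (0.01 as deposited) and against shSNW1 to -0.10 (0.01), with which LIF was called lower in shNRF2 than in shSNW1 cells (-0.17). That LIF difference was also called by limma-voom on recovered reads (-0.098, adjusted p = 0.0428). The common total also gave CCL20 a call in shNR0B1 against shGFP cells (0.26). Depth limits IL11 in H460 and CXCL5 in H2122, where knockdown libraries held 0 to 9 reads.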
